A study of Mus musculus with 16 samples.

Results

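miR-483-5p is the microRNA cut from the 5′ arm of the miR-483 hairpin, which lies in an intron of IGF2, the gene of insulin-like growth factor 2. Its level was read in extracellular RNA of irradiated HCT116 cells from every probe that the array design assigns to the name hsa-miR-483-5p, which were 2 probes for 1 miRNA of the 1205 human miRNAs on the array. HCT116 is a human colorectal carcinoma line, although the labels give the organism as mouse, and the values were read as human miRNAs. The cultures had received 0, 2, 6 or 10 Gy of high-dose-rate X-rays, were then kept for 72 h in RPMI1640 medium with 10% FBS (fetal bovine serum), and gave their supernatant for RNA extraction. There were 4 independent cultures per dose, 1 single-colour Agilent array per culture and 16 arrays in all; the 0 Gy cultures were the unirradiated controls. The 2 Gy arrays were placed by their own labels, since the series' design text names 0, 6 and 10 Gy alone. All groups share 1 cell line and the serum, which carries RNA of its own. No array of medium without cells was analysed here, so RNA of the cells and RNA of the serum cannot be told apart, nor can release per cell and the number of cells.

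As background, a microRNA is cut from a hairpin transcript, and 1 arm is loaded into an Argonaute protein, where its seed, bases 2 to 8, pairs with target RNAs. IGF2 is an imprinted growth factor gene that is overexpressed in part of colorectal carcinomas and in adrenocortical carcinoma, and miR-483-5p in serum has been studied as a marker of adrenocortical carcinoma. In human cells miR-483-5p has been described to bind the 5′ untranslated region of IGF2 mRNA and raise IGF2 transcription. The opposite arm, miR-483-3p, represses BBC3 (PUMA), a proapoptotic gene. microRNAs in culture medium are carried in vesicles, in protein complexes or as debris of dying cells.

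The tables of RefSeq sequences used here are those of mouse (build GRCm38.p6), so the mouse arms are shown to place the miRNA and its base composition, and the human sequence was not used here. They lie on the minus strand inside mouse Igf2 (chromosome 7, 142650768 to 142666816), the 5p arm at chr7:142654968-142654989, the 3p arm at chr7:142654932-142654952 and the hairpin at chr7:142654924-142654996. In the mature arms capitals mark the seed, and in the hairpin they mark both arms.
mmu-miR-483-5p: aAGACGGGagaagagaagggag
mmu-miR-483-3p: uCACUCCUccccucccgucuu
Mir483 hairpin: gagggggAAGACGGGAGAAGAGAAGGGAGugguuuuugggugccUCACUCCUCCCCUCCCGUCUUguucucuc
The mouse 5p arm is made almost wholly of purines, 21 of its 22 bases, whereas the 3p arm has 2 purines in 21 bases. Among 1679 mouse mature miRNAs the median share of purines was 50%, and 1, miR-483-5p itself, reached 95.5%. Its seed AGACGGG was held by 1 of the 1679, again miR-483-5p itself, so no family of miRNAs shares it in that table.

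Both probes were bright on all 16 arrays. Probe A_25_P00012459 gave background-subtracted processed signals of 522 to 2357 and probe A_25_P00014861 of 992 to 4810, each as a mean over up to 20 spots. Every spot that was kept lay well above background, and the median ratio of spot to local background intensity was 33.3 for the first probe and 63.0 for the second. The spots of 1 probe on 1 array scattered little, with a median coefficient of variation of 4.60% for the first probe and 5.27% for the second. The software had flagged 27 of 320 spots of the first probe (8.44%) and 30 of 320 of the second (9.38%) as outliers, against 3.27 to 4.90% of the spots of a whole array, and these spots were left out. Spots and probes of 1 array share 1 culture and 1 labelling, so the culture was the replicate throughout.

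Levels between arrays are given as log2 of signal over the array's 75th percentile, taken over the 518 probes detected on all 16 arrays, where a detected probe had more than 0.5 of its spots well above background. The level of miR-483-5p is the mean of its 2 probes on this scale. At 0 Gy it was 1.05, 1.40, 1.73 and 1.14 in replicates 1 to 4. At 2 Gy it was 2.02, 1.69, 2.04 and 2.05. At 6 Gy it was 1.75, 1.80, 1.57 and 2.40, and at 10 Gy 1.85, 1.42, 1.65 and 1.85. The 0 Gy arrays lay lowest, except that replicate 3 at 0 Gy stood above replicate 2 of 2 Gy, replicate 3 of 6 Gy and replicates 2 and 3 of 10 Gy, and the highest single array was replicate 4 at 6 Gy.

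The mean was 1.33 ± 0.31 without irradiation, 1.95 ± 0.17 after 2 Gy, 1.88 ± 0.36 after 6 Gy and 1.69 ± 0.20 after 10 Gy (log2 scaled signal, SD, n = 4 each). The level at 2 Gy was thus higher than at 0 Gy by 0.62 ± 0.19 (SE of the limma fit to all 16 arrays), a ratio of 1.54. It was higher at 6 Gy than at 0 Gy by 0.55 ± 0.19 (ratio 1.46) and higher at 10 Gy than at 0 Gy by 0.36 ± 0.19 (ratio 1.29). Between 10 Gy and 6 Gy the difference was -0.19 ± 0.19. The miRNA was chosen by these very values, its level at 2 Gy being already known to exceed that at 0 Gy in these arrays, so these differences are a description and carry no test.

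No dose was fully apart from another in miR-483-5p. Among the 283 tested miRNAs, all 4 irradiated arrays lay above all 4 of 0 Gy for 7.07% at 2 Gy, 5.65% at 6 Gy and 9.89% at 10 Gy. At 2 Gy, 3 of 4 arrays lay above every 0 Gy array, and 15 of the 16 pairs of a 2 Gy and a 0 Gy array had the higher value at 2 Gy. At 6 Gy 3 of 4 arrays lay above every 0 Gy array (15 of 16 pairs), and at 10 Gy 2 of 4 did (14 of 16 pairs). In the order 2, 6, 10 and 0 Gy from high to low, the neighbours 6 and 2 Gy differed by -0.07, less than their pooled SD of 0.28, and 10 and 6 Gy by -0.19, less than their pooled SD of 0.29. The step between 10 and 0 Gy, 0.36, was larger than the pooled SD of 0.26. The level therefore did not follow the dose step by step: the lowest dose above 0 had the highest mean.

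**Figure D1:**
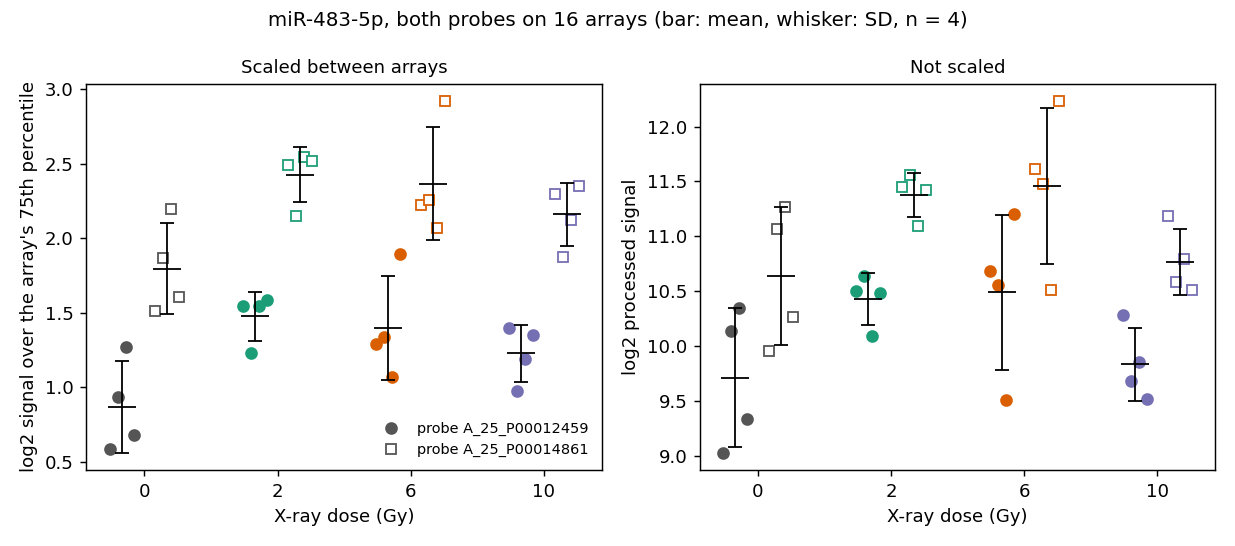
miR-483-5p by probe on the 16 arrays, with dose in Gy on the x axis; the left panel shows log2 signal over the array's 75th percentile and the right panel log2 processed signal without scaling. Points are arrays (filled circles probe A_25_P00012459, open squares probe A_25_P00014861), bars are means and whiskers SD (n = 4). Both probes show the same arrays high and low, with replicate 4 at 6 Gy highest, and the doses overlap in both panels.

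The 2 probes gave the same picture. Over the 16 arrays their scaled levels correlated with Pearson's r = 0.995, and with r = 0.991 after each dose mean was removed. The second probe stood above the first by 0.95 ± 0.04 (log2, SD over 16 arrays), between 0.90 and 1.03 on each array. Taken alone, the first probe was higher at 2 Gy than at 0 Gy by 0.61 ± 0.18 (SE) and the second by 0.63 ± 0.19. At 6 Gy against 0 Gy the values were 0.53 ± 0.18 and 0.57 ± 0.19, and at 10 Gy against 0 Gy both were 0.36 (SE 0.18 and 0.19). Agilent's own total signal for the miRNA averaged 1000 ± 421 without irradiation, 1545 ± 209 after 2 Gy, 1790 ± 792 after 6 Gy and 1029 ± 241 after 10 Gy (intensity without scaling, SD, n = 4). The error that the software states for it was between 7.39 and 7.49% of the signal, less than the spread between cultures of any dose.

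The place of 10 Gy depended on the scaling. Without scaling the log2 processed signal was 10.18 ± 0.63 without irradiation, 10.90 ± 0.22 after 2 Gy, 10.97 ± 0.71 after 6 Gy and 10.30 ± 0.32 after 10 Gy (SD, n = 4). On this scale 6 Gy was highest, 2 Gy exceeded 0 Gy by 0.73 and 10 Gy exceeded 0 Gy by 0.12, within the pooled SD of 0.50. The 75th percentile itself, by which arrays were scaled, averaged 8.84 ± 0.35 without irradiation, 8.95 ± 0.35 after 2 Gy, 9.09 ± 0.44 after 6 Gy and 8.61 ± 0.31 after 10 Gy (log2). Other scalings moved the median of all miRNAs: at 2 Gy against 0 Gy the median difference over the tested miRNAs was 0.03 with the scaling used, 0.40 with scaling over all probes, 0.21 with quantile normalization and 0.13 with none. Relative to that median, miR-483-5p was higher at 2 Gy by 0.59, by 0.61, by 0.50 and by 0.60 in the same order of scalings. At 6 Gy against 0 Gy it was higher than the median by 0.43, by 0.46, by 0.30 and by 0.43.

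**Figure D2:**
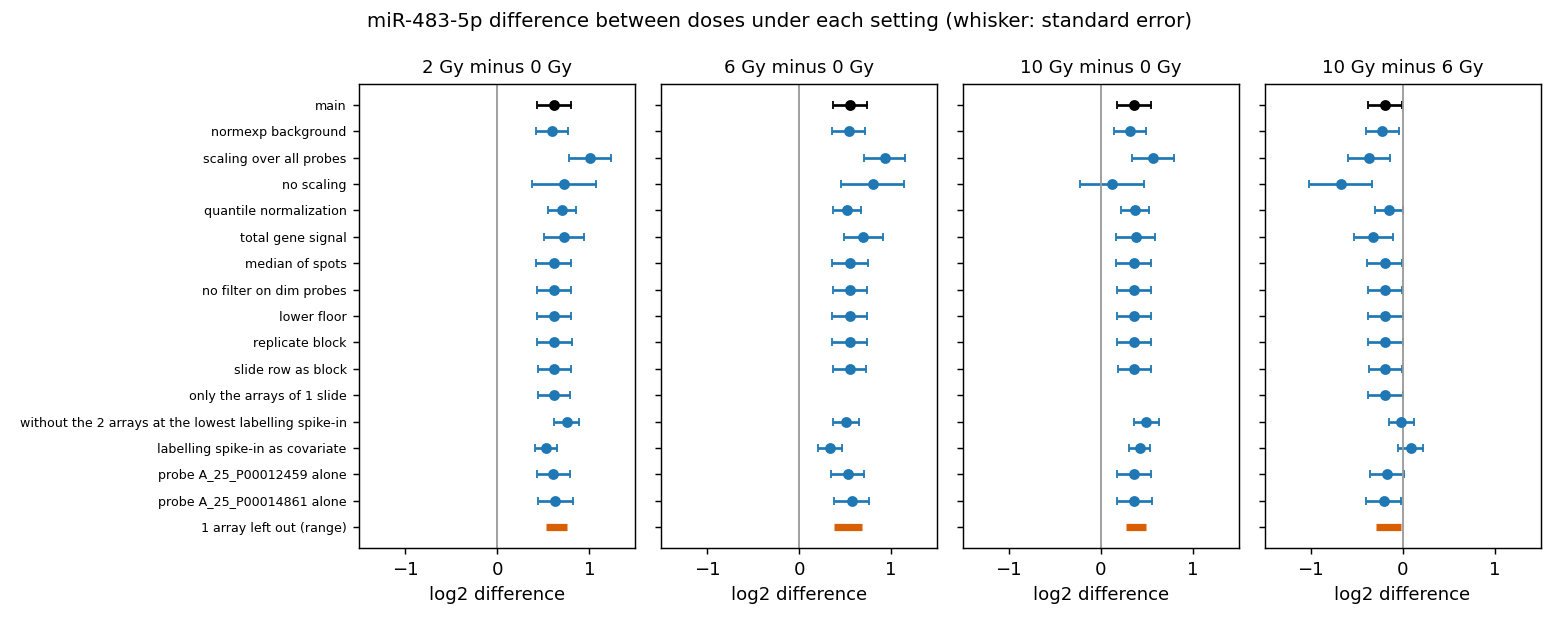
Difference of miR-483-5p between doses (x axis, log2) under the settings named on the left, where main is the processing used in the text, 1 panel per comparison; points are fitted differences, whiskers their standard errors, and the orange bar spans the values with 1 array left out. The differences of 2, 6 and 10 Gy from 0 Gy are above 0 under every setting shown, and that of 10 Gy from 6 Gy is -0.19 with the scaling used and 0.09 once the fit holds the labelling spike-in.

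To set these differences against the rest of the array, the same fit was made for the 283 human miRNAs that had a probe detected on all 4 arrays of 1 dose or more. At 2 Gy against 0 Gy, 36 of 283 (12.7%) passed a Benjamini-Hochberg adjusted p of 0.05 in limma, 17 of them higher (6.01%) and 19 lower (6.71%). A larger difference than that of miR-483-5p was found for 7 of the 283 (2.47%). At 6 Gy against 0 Gy 55 of 283 passed (19.4%), 17 higher (6.01%) and 38 lower (13.4%), and 9 had a larger difference than miR-483-5p (3.18%). At 10 Gy against 0 Gy 1 of 283 passed (0.353%), and 24 had a larger difference than miR-483-5p (8.48%). This place in the order moved with the processing: quantile normalization put 4.95% above it at 2 Gy, 13.4% at 6 Gy and 15.2% at 10 Gy, normexp background correction 0.353%, 0.707% and 4.59%, and the spike-in described below, as a covariate, 2.12%, 6.71% and 6.71%. At 10 Gy against 6 Gy limma called 0 of 283 at the adjusted threshold and 42 (14.8%) at an unadjusted p of 0.05, and 74.2% had a larger difference than miR-483-5p. These counts of calls depended on single arrays: at 2 Gy against 0 Gy they ran from 0 to 121 with 1 array left out, 121 without replicate 3 of 0 Gy and 0 without replicate 1 or without replicate 4 of 2 Gy (69 each at an unadjusted p of 0.05). The comparisons with 0 Gy share the 0 Gy arrays. The 0 and 2 Gy arrays were on 1 slide and the 6 and 10 Gy arrays on the other, and within a slide each dose held its own columns, so dose and place cannot be told apart.

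The level of miR-483-5p ran against the labelling spike-in, an RNA of known sequence that is added at the labelling step. The software reports its signal on a log10 scale: 3.04, 2.50, -0.70 and 2.80 at 0 Gy, 0.31, 2.10, 1.93 and 1.47 at 2 Gy, 0.50, 1.66, 1.79 and -0.70 at 6 Gy, and 2.06, 2.71, 2.28 and 1.82 at 10 Gy (replicates 1 to 4). It was within the software's range on 3 of 16 arrays, whereas the hybridisation spike-in was so on all 16. The 2 arrays at -0.70, replicate 3 of 0 Gy and replicate 4 of 6 Gy, had the highest miR-483-5p of their doses, and the arrays at 3.04 and 2.80, replicates 1 and 4 of 0 Gy, had the lowest of all 16.

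Over the 16 arrays Pearson's r between the scaled level and the spike-in was -0.70, with a permutation p of 0.00224 (0.00538 adjusted), and Spearman's rho was -0.74, with a permutation p of 0.00126 (0.0045 adjusted), over the 12 values of 6 relations. All permutations in this paragraph moved arrays freely between doses. The miRNA was chosen by its dose values, and the mean spike-in also varied with dose (1.91, 1.45, 0.81 and 2.22 at 0, 2, 6 and 10 Gy). The p-values over arrays are therefore a description. Leaving out replicate 3 of 0 Gy and replicate 4 of 6 Gy, whose spike-in was farthest from the median, gave r = -0.73. For deviations from the dose means it was -0.82 (permutation p = 0.00029). This p came from shuffling deviations freely across doses and takes no account of the dose means removed, so it is too small. On slide 1 r was -0.62 (exact permutation p = 0.10) and rho -0.79 (exact p = 0.0279), and on slide 2 r was -0.84 (exact permutation p = 0.015) and rho -0.55 (exact p = 0.171). Without scaling between arrays r was -0.72 (permutation p = 0.0015, adjusted 0.0045). The number of human miRNAs detected on an array (242 to 358) had r = -0.36 with the level (permutation p = 0.165, adjusted 0.247). The 75th percentile had r = 0.31 (permutation p = 0.246, adjusted 0.327). The relation to the spike-in was not computed for the other tested miRNAs, so it is not given as particular to miR-483-5p. Of these 282, 14 had r above 0.9 to miR-483-5p itself and 117 had r below 0.

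**Figure D3:**
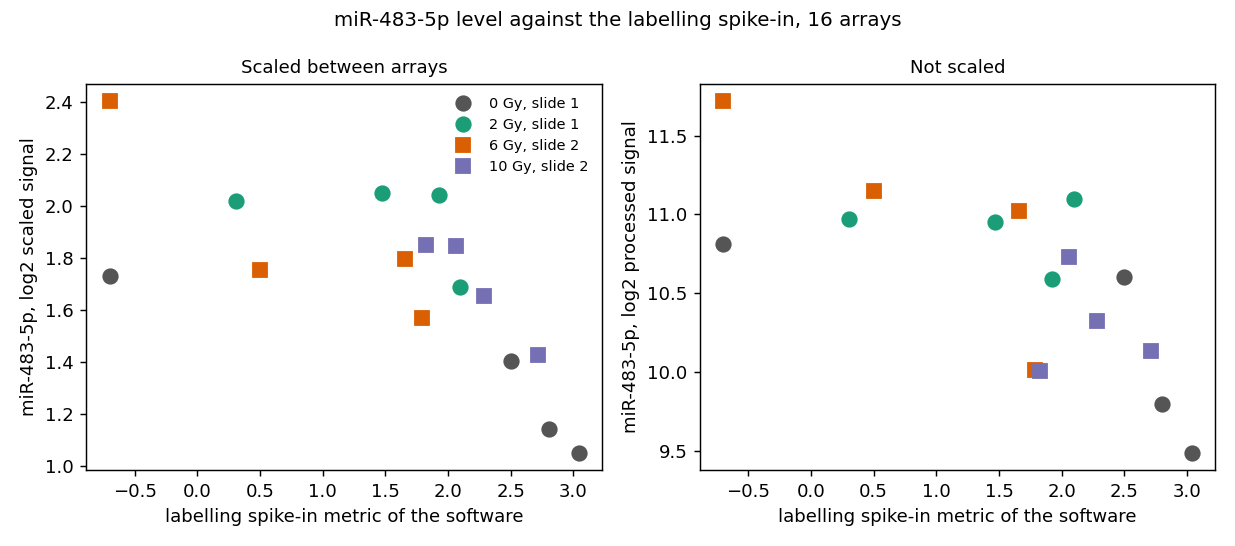
miR-483-5p (y axis; log2 scaled signal on the left, log2 processed signal without scaling on the right) against the software's labelling spike-in metric (x axis, log10 scale). Each point is 1 of 16 arrays, coloured by dose and shaped by slide; high miR-483-5p lies at low spike-in, with r = -0.70 in the left panel and -0.72 in the right.

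With the spike-in added to the fit as a covariate, miR-483-5p was higher at 2 Gy than at 0 Gy by 0.53, at 6 Gy than at 0 Gy by 0.34 and at 10 Gy than at 0 Gy by 0.42, and the difference of 10 Gy from 6 Gy was 0.09. Without the 2 arrays at the lowest spike-in the same differences were 0.75, 0.51, 0.50 and -0.01. The 2 Gy difference was thus as large without these arrays, while the sign of the 10 Gy against 6 Gy difference turned with the covariate.

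The opposite arm was dim. The probes of miR-483-3p, A_25_P00012461 and A_25_P00012462, gave processed signals of 4.70 to 35.3 and 10.0 to 60.3, with median ratios of spot to background intensity of 1.76 and 1.97. More than 0.5 of the spots were well above background on 1 array for the first probe, replicate 4 of 6 Gy, and on 6 arrays for the second. These 6 were replicates 2 and 3 of 0 Gy, 1 of 2 Gy, 2 and 4 of 6 Gy and 1 of 10 Gy, so no dose had it on all 4 arrays and it was not tested. Agilent's total signal for miR-483-3p was 0.1 to 12.6 on 15 arrays and 37.1 on replicate 4 of 6 Gy, the array on which miR-483-5p was also highest. Levels of different probes cannot be compared as amounts, and the ratio of the arms was not estimated.

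The tested miRNAs whose scaled levels were most like that of miR-483-5p over the 16 arrays were miR-514b-5p (r = 0.97), miR-30c-2-3p (0.96), miR-526b-5p (0.96), miR-3202 (0.96) and miR-765 (0.95). After each dose mean was removed the 5 highest were these same miRNAs, with r of 0.99 for miR-526b-5p, 0.96 for miR-514b-5p, 0.95 for miR-3202 and 0.94 for miR-765 and for miR-30c-2-3p. The arrays share their labelling and scaling with all miRNAs on them, and over all 282 other tested miRNAs the median r was 0.28, with 14 above 0.9 and 117 below 0. Because these 5 were picked for following a miRNA that was itself known to be higher at 2 Gy, their own dose differences are a description with no test. miR-765 averaged -0.51 ± 0.14 at 2 Gy and -1.33 ± 0.21 at 0 Gy (log2 scaled, SD, n = 4 each), a difference of 0.82 ± 0.18 (SE). At 2 Gy against 0 Gy miR-30c-2-3p differed by 0.74 ± 0.20, miR-526b-5p by 0.68 ± 0.23, miR-514b-5p by 0.59 ± 0.23 and miR-3202 by 0.51 ± 0.18. At 10 Gy against 0 Gy the 5 differences ran between 0.21 for miR-526b-5p and 0.58 for miR-765.

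**Figure D4:**
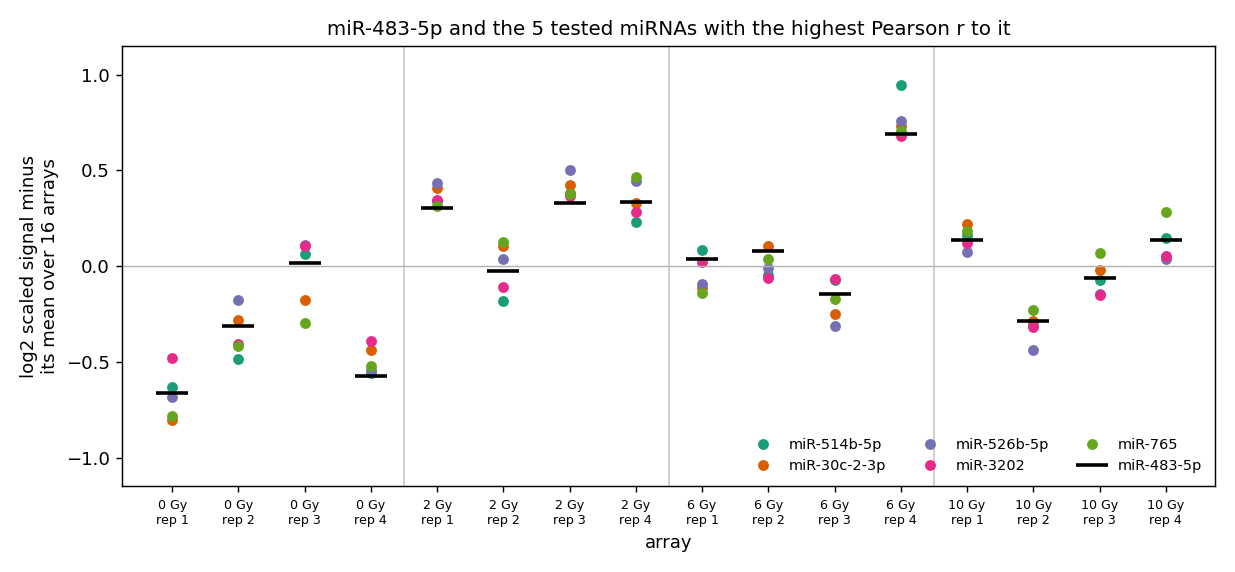
Log2 scaled signal of miR-483-5p (black bars) and of the 5 tested miRNAs most like it (coloured points), each minus its own mean over the 16 arrays (y axis), by array (x axis, doses from 0 to 10 Gy). The 6 miRNAs follow each other also within a dose: all 6 are lowest at replicate 1 of 0 Gy and highest at replicate 4 of 6 Gy.

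At the other end of the order, chosen after their values were seen, stood miR-1290 (r = -0.94), miR-1246 (-0.94), miR-4286 (-0.92), miR-494-3p (-0.91) and miR-23a-3p (-0.90). Base composition could be set beside likeness for the 88 tested miRNAs with a mouse mature miRNA of the same name in RefSeq. The 18 with at least 60% purines had a median r of 0.35 to miR-483-5p, with 12 of them above 0. For the 70 others the median r was -0.69, with 19 of them above 0. Over all 282 other tested miRNAs the median r was 0.28, with 117 below 0, so the median of the 18 lay near that of all. The cut fell just above miRNAs at 59.1% purines, whose r ran between -0.91 (miR-494-3p) and 0.80 (miR-23a-5p). Over all 88 the share of purines was weakly related to that r (Pearson 0.25, Spearman 0.23). This is a description over miRNAs of the same arrays, with mouse letters in place of human ones.

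Few miRNAs of 11p15.5, the chromosome band that holds miR-483 and the imprinted genes IGF2 and H19, could be tested. They were grouped by the band, and whether they are imprinted was not examined. Of 5 on the array, 2 passed the filter, and both arms of miR-675, made from H19, were detected on no array. miR-210-3p, the hypoxia-induced miRNA, fell at 6 Gy to a mean of -3.55, against -1.25 at 0 Gy (difference -2.29 ± 0.65 SE, limma adjusted p = 0.0374), and stood at -2.79 at 2 Gy (difference -1.53 ± 0.65, adjusted p = 0.112). At 6 Gy miR-210-3p lay on 1 array at the floor, the lowest value kept, so that fall is understated. In the 8 settings listed in the next paragraph it was called lower in 7 at 6 Gy and in 2 at 2 Gy. miR-4298 differed from 0 Gy by 0.20 ± 0.13 at 2 Gy and 0.13 ± 0.13 at 6 Gy (limma adjusted p = 0.257 and 0.426). It was called higher in 2 of 8 settings at 2 Gy and in 1 at 6 Gy. Its 6 Gy difference was 0.51 at most, and -0.01 with the spike-in as a covariate. Over the 16 arrays miR-210-3p had r = -0.82 to miR-483-5p and miR-4298 r = 0.81.

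The imprinted clusters at 14q32 and C19MC were sparse as well. Of 68 miRNAs of the 14q32 cluster on the array 6 were tested and 57 were detected on no array. At 2 Gy against 0 Gy 1 of the 6 rose and 2 fell, beside 6.01% higher and 6.71% lower among all 283, and their median difference was 0.08, beside 0.03 over all. miR-134-5p rose by 0.49 ± 0.13 (SE, limma adjusted p = 0.0283), miR-494-3p fell by 1.55 ± 0.46 (adjusted p = 0.0404) and miR-539-5p fell by 0.35 ± 0.11 (adjusted p = 0.04997). The last was detected on all 4 arrays at 0 Gy alone, and on 2 at 2 Gy, 2 at 6 Gy and 1 at 10 Gy. It entered the test only through the dose where it was highest, so the filter favoured its fall, also within these counts. At 2 Gy it lay at the floor (-4.60, the lowest value kept) on 2 arrays. It passed in 3 of 8 settings, its difference running between -0.45 and -0.01. The 8 settings were the processing used, 3 other scalings (over all probes, quantile and none), Agilent's total signal, normexp and the 2 that take account of the spike-in; with no scaling, limma called 0 of all 283 miRNAs and so no list member (36 of 283 at an unadjusted p of 0.05 at 2 Gy). The same 3 passed in the same directions at 6 Gy against 0 Gy, by 0.55, -1.64 and -0.34, miR-539-5p there in 2 of 8 settings. Of 38 miRNAs of the C19MC cluster, which is active in placenta, 2 were tested: miR-516a-5p rose at 2 Gy by 0.94 ± 0.21 (adjusted p = 0.0190), and miR-526b-5p is given above. No member of either cluster passed at 10 Gy against 0 Gy with the processing used, where 1 of all 283 did (0.353%). In the 8 settings miR-134-5p and miR-516a-5p were called there in 3 each, miR-539-5p in 2, and miR-370-3p and miR-494-3p in 1 each. Calls among all 283 were more frequent in such settings, for example 40 higher and 22 lower without the 2 arrays at the lowest spike-in.

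miRNAs that, like miR-483, lie in introns of protein-coding genes went both ways. Of 50 on the array 20 were tested, and at 2 Gy against 0 Gy 3 rose and 3 fell, beside 6.01% higher and 6.71% lower among all 283, with a median difference of -0.09. miR-25-3p, of an MCM7 intron, fell by 3.25 ± 0.93 (SE, limma adjusted p = 0.0350), miR-30e-5p, of NFYC, by 1.13 ± 0.27 (0.0225) and miR-149-5p, of GPC1, by 0.43 ± 0.12 (0.0350). At 2 Gy miR-25-3p lay at the floor on 2 arrays and miR-30e-5p on 3, and at 6 Gy miR-30e-5p on all 4, so these falls are understated. miR-30e-5p was detected on every array at 0 Gy alone (on 2 at 2 Gy, 2 at 6 Gy and 3 at 10 Gy). It entered the test only through the dose where it was highest, so the filter favoured its fall, also within these counts. miR-30e-5p was called at 2 Gy in 5 of 8 settings and miR-149-5p in 4 of 8. The other arm of that hairpin, miR-149-3p, rose by 0.63 ± 0.12 (adjusted p = 0.0190), as did miR-1226-5p (0.48) and miR-1224-5p (0.36). At 6 Gy 2 rose and 2 fell, beside 6.01% higher and 13.4% lower among all 283, and at 10 Gy miR-149-3p alone rose, by 0.63 ± 0.12 (adjusted p = 0.0272). The split moved with the scaling: at 2 Gy it was 9 higher and 2 lower with scaling over all probes, 4 and 2 with quantile normalization, and 0 and 0 with none. Among all 283 the calls in the same order were 111 higher and 18 lower, 55 and 16, and 0 and 0. The split of the list thus moved with that of all tested miRNAs.

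Markers of the line and of other sources were read on the same arrays. Of 8 miRNAs of intestinal epithelium and colorectal carcinoma 4 were tested, miR-200c-3p and miR-141-3p (detected on 15 arrays each) and miR-21-5p and miR-31-5p (11 each), while miR-192-5p, miR-194-5p and miR-215-5p were detected on none. miR-21-5p fell at 2 Gy by 2.79 ± 0.66 (SE, limma adjusted p = 0.0225) and differed at 6 Gy by -2.72 ± 0.66 (adjusted p = 0.0304). It lay at the floor on 3 arrays at 2 Gy and on 2 at 6 Gy, so both differences are understated. miR-31-5p was detected on every array at 0 Gy alone, its highest dose, so the filter favoured a fall. miR-200c-3p differed at 2 Gy by -2.14, miR-31-5p by -1.37 and miR-141-3p by -0.82, which did not pass. With the 2 arrays at the lowest spike-in left out, all 4 were lower and past the threshold at 2 Gy and at 6 Gy. Calls were widespread there: 137 of 283 miRNAs passed at 2 Gy, 72 of them lower, and 135 at 6 Gy, 71 of them lower. At 6 Gy all 4 were also called lower with scaling over all probes, beside 29 of all 283. With quantile normalization 3 of the 4 were called lower at 6 Gy, beside 35 of all 283, and with no scaling 0. At 2 Gy each of the first 2 scalings called 1 of the 4 lower. Of 12 p53-linked miRNAs 2 were tested, and neither passed at any dose with the processing used: miR-34a-5p, a direct p53 target, differed from 0 Gy by -1.76 ± 0.82 at 2 Gy (adjusted p = 0.141) and miR-145-5p by -0.77 ± 0.36 (0.141). Without the same 2 arrays both passed as lower at 2 Gy and 1 did at 6 Gy. With Agilent's total signal 1 passed as lower at 6 Gy, beside 36 of all 283.

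Of 4 red blood cell miRNAs miR-451a was detected on no array, and miR-486-5p, on all 16, differed from 0 Gy at 2 Gy by 0.15 ± 0.11 (limma adjusted p = 0.308). It differed by 0.21 at 6 Gy and 0.31 at 10 Gy (adjusted p = 0.142 and 0.117). In the 8 settings it was called higher in 2 at 2 Gy, 4 at 6 Gy and 3 at 10 Gy. Higher calls among all 283 were more frequent in those settings, for example 148 at 6 Gy with scaling over all probes. Of 5 white blood cell and platelet miRNAs 1 was tested, miR-155-5p, which rose at 6 Gy by 0.31 ± 0.09 (adjusted p = 0.0407; called in 5 of 8 settings, between 0.08 and 0.69) and differed at 2 Gy by 0.19 (adjusted p = 0.163; called in 2 of 8). The liver miRNA miR-122-5p was detected on 4 arrays and not tested. Of 4 muscle miRNAs 3 were tested and none passed with the processing used: miR-133a-3p, miR-133b and miR-206 differed at 2 Gy from 0 Gy by 0.12, 0.09 and -0.35. At 6 Gy 2 passed as higher with scaling over all probes, beside 148 of all 283, and 2 with quantile normalization, beside 92. Without the 2 arrays at the lowest spike-in 1 passed as lower at 2 and at 6 Gy, beside 72 and 71 of all 283. The r to miR-483-5p was -0.04 for miR-486-5p and 0.69 for miR-155-5p, and their part in its level was not tested.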

How the data were processed

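Each deposited file holds 1 single-colour array and, per the file headers, came from version 11.5.1.1 of Feature Extraction. Its processed signal is an intensity, per the file headers, with background subtracted by the software and no scaling between arrays; the deposited files also hold flags (other values) for outliers and detection. Per the labels' protocols, 100 ng of RNA extracted with ISOGEN was labelled with Cy3.

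Spots that were controls or outliers were dropped, and the rest averaged per probe. Arrays were divided by their 75th percentile over 518 probes, floored at 0.0412 (log2 -4.60) and log2 transformed; 4.17% of the values lay at the floor, none of them of miR-483-5p. The 592 passing human probes gave 283 miRNAs. limma 3.58.1 in R 4.3.3 (with the data.table package, version 1.17.8) fitted dose means on 16 arrays, with Benjamini-Hochberg adjustment; the fit was tested on simulated data. Correlations over 16 arrays used 100000 permutations (scipy 1.17.1), and those over 8 all orders. Figures were drawn in Python 3.11.15 with matplotlib 3.10.9. Alternatives were normexp (offset 50, on median spot signals, as the files hold no mean), other scalings, summaries, filters and floors, blocks, slides and each array left out.

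The miRNA, the lists and the tests were chosen with earlier results of these data known. Named were miR-483-5p and miR-483-3p, the 5 tested miRNAs most like miR-483-5p by Pearson's r in level and in deviations, and of each list every tested member (up to 4) or otherwise the called ones, up to 4 with the largest difference at 2 Gy. A few others were named after their values were seen. Replicate numbers were not taken as pairs, and whether cultures of the same number shared a batch was not settled. The number of arrays limits the precision. The limma p-values set a dose difference against the spread between these cultures, and dose and place on the slides cannot be told apart.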

Additional observations from a re-analysis of the deposited data

Results flagged for a closer look

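Of 36 groups of 4 arrays examined, 4 held an array farther from the rest than Dixon's 95% limit allows. For independent groups chance gives about 1 in 20. The groups examined were overlapping measures of the same arrays, so their count cannot be set against that rate. Replicate 2 of 2 Gy stood low in miR-483-5p, at 1.69 on the log2 scale against 2.02 for the nearest 2 Gy array. It did so on both probes, at 1.23 for A_25_P00012459 and at 2.15 for A_25_P00014861. The level is the mean of these probes, so its flag and theirs are the same event. Replicate 3 of 0 Gy stood low in the labelling spike-in, at -0.70 against 2.50 for the nearest 0 Gy array.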

How the results depend on the processing

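The difference of miR-483-5p from 0 Gy was positive at 2, 6 and 10 Gy under every setting run. With scaling over all probes it was 1.01 at 2 Gy and 0.93 at 6 Gy, and without scaling 10 Gy minus 6 Gy was -0.67; its sign turned, to 0.09, with the spike-in as a covariate, and other settings moved these 4 differences by less than the spread between arrays. With 1 array left out the difference was 0.53 to 0.75 at 2 Gy, 0.37 to 0.68 at 6 Gy, 0.27 to 0.50 at 10 Gy, and -0.29 to -0.01 for 10 Gy minus 6 Gy (-0.01 without replicate 4 of 6 Gy). The relation to the labelling spike-in was -0.82 to -0.58 in r with 1 array left out, and -0.62 on slide 1, where p missed the threshold.

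The counts of called miRNAs moved far more, and where a count is 0 the number at an unadjusted p of 0.05 follows in brackets. At 2 Gy against 0 Gy (36) limma called 19 with normexp, 129 with scaling over all probes, 0 with none (36), 71 with quantile normalization, 56 with no filter, 0 on slide 1 alone (69), 137 without the 2 arrays at the lowest spike-in and 74 with the spike-in as a covariate, the last 2 settings chosen after seeing the data. Higher and lower calls numbered 17 and 19, against 111 and 18 when all probes set the scale, and 55 and 16 after quantile normalization. At 6 Gy against 0 Gy (55) it called 34, 177, 0 (62), 127 and 90 in the same order up to no filter, 88 with Agilent's total signal, 135 without the 2 arrays and 29 with the covariate; higher and lower calls numbered 17 and 38, 148 and 29, and 92 and 35 in the same settings. At 10 Gy against 0 Gy (1) it called 0 with normexp (37), 22 with scaling over all probes, 0 with none (22), 27 with quantile normalization, 8 with no filter, 0 with Agilent's total signal (59), 0 with spot medians (57), 11 with slide row as a block, 62 without the 2 arrays and 59 with the covariate. At 10 Gy against 6 Gy (0) it called 1 with no filter and 1 with the covariate. Leaving out 1 array gave 0 to 121 calls at 2 Gy, 0 to 143 at 6 Gy, 0 to 43 at 10 Gy and 0 to 0 for 10 Gy against 6 Gy. At 6 Gy it called 143 without replicate 3 of 0 Gy and 0 without replicate 1, 2 or 4 of 0 Gy (90, 98 and 91) or replicate 1 or 4 of 6 Gy (104 and 91), and at 10 Gy 43 without replicate 3 of 0 Gy. The cause was not tested.

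With the replicate number as a block limma called 68, 75, 7 and 0 miRNAs in these 4 comparisons, against 36, 55, 1 and 0 without it. Deviations of same-numbered arrays correlated between -0.76 and 0.87 over 24 pairs (median 0.31), and 14 of 24 were over 0.1. These mixed values do not settle whether the numbers mark pairs or a shared batch. The fit used in the text did not take them as pairs. Signal over background did not limit miR-483-5p and did limit miR-483-3p.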
